A study of Mus musculus with 4 samples.

Results

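Keratins are the intermediate filament proteins of epithelial cells, and here they were followed at the RNA level in the fetal mouse penis. The members were chosen by name, as every gene whose symbol is Krt followed only by digits, which gave 49 of the 32287 features in the deposited matrices. Of these, 25 encode type I and 23 encode type II keratins, and Krt222 was not typed. A keratin filament is built from pairs of 1 type I and 1 type II protein, so the genes are known for paired use: Krt5 with Krt14 in the basal layer of stratified epithelium, Krt1 with Krt10 in the keratinizing layers above it, Krt4 with Krt13 in moist, non-keratinizing stratified epithelium, and Krt8 with Krt18 in simple epithelium. When a basal keratinocyte leaves the basement membrane it switches from the Krt5 and Krt14 pair to a pair of the upper layers. Krt8 and Krt18 are also the keratins of some cells that are not epithelial, the notochord among them.

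The study asked what the cells of the Nr5a1 lineage, which enter the penis from outside it, contribute to closure of the urethra. Penises of male embryos at embryonic day 16.5 were dissociated, and polyadenylated RNA of single cells was sequenced from the 3' end in 2 libraries per genotype. DTA- and DTA+ embryos alike carried 1 Rosa-LSL-DTA allele (Rosa-LSL-DTA +/f), which encodes diphtheria toxin A behind a stop cassette, and DTA+ embryos also carried the transgene Nr5a1-Cre Tg/+, so that the toxin was made in, and killed, cells that had expressed Nr5a1. The DTA- controls, labelled wild type, had no Cre. A Rosa-LSL-tdTomato reporter allele is described in the breeding, and the sources used here do not settle whether these embryos held it. Nr5a1-Cre also acts in the testes, which were reduced, and in the adrenal glands, which were lost, so ablation in the penis and a change in testicular androgen cannot be told apart.

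The libraries held 11343 to 12580 cell barcodes, and 6573 to 8810 passed the limits on UMIs (unique molecular identifiers, the tags that count captured RNA molecules) and on mitochondrial and hemoglobin reads. Median depth of the kept cells was 4700 and 4077 UMIs in DTA- replicates 1 and 2 and 3551 and 3560 in the DTA+ replicates, so the controls were deeper. In all, 238 barcodes occurred in 2 libraries. Levels are given as CPM, a gene's counts scaled in the usual way to the UMI total of the cells named. Since each UMI stands for 1 molecule read at its 3' end, CPM was compared between genes without a length correction. The labels do not say whether replicates came from separate animals, so p-values measure only the spread between these libraries.

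Epithelium was a single cluster of 439 cells, with 108 and 93 in the DTA- libraries and 149 and 89 in the DTA+ libraries, or 1.01% to 1.89% of kept cells. Its cells were clustered again without the keratins, so that the layers do not rest on the genes described, and each layer was named from other markers. Cells called basal-like (115 cells) held the hemidesmosome collagen Col17a1 in 76.5% of cells against 24.1% of the other epithelial cells, and the transcription factor gene Trp63 in 62.6% against 33.6%. Trp63 was more frequent still in the bud-like (80.3%) and urethral-like (75%) cells described next, and rarer in keratinizing-like (4.41%) and unnamed (22.8%) cells. Cav1, on the same list, went the other way (10.4% against 14.2%). Bud-like cells (61) held Wnt10b, a signal of hair and gland buds, in 24.6% against 2.38%, while Eda2r was at 0% against 0.265%. Keratinizing-like cells (68) held Sbsn in 76.5% against 11.9% and the cornified-layer gene Cnfn in 52.9% against 1.08%. Lgals7 (75% against 94.6%) and Dsp (48.5% against 53.9%), also among their markers, went the other way. Urethral-like cells (24) held the endoderm factor gene Foxa1 in 50% against 0.723% and Shh in 33.3% against 0.964%. Of the same list, Elf3 (0% against 3.61%) and Psca (4.17% against 4.58%) went the other way. The urothelial genes Upk2 and Upk3a and the mucin gene Muc1 were at 0 here and in the other epithelial cells. The remaining 171 epithelial cells stayed unnamed, in sub-clusters led by hemoglobin genes (85 cells), by cell cycle genes (62) and by mesenchymal collagens (24). Sox9/Col9a1 mesenchyme was 2604 cells in a main and a cycling cluster, with Sox9 in 81.9% of cells against 6.49% of the other mesenchyme and Col9a1 in 36.3% against 0.961%. Acan, the aggrecan gene of mature cartilage, had a UMI in 0.422% of them.

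Keratin RNA was unevenly spread over the 49 genes. In the kept cells 5 members (Krt40, Krt72, Krt73, Krt76 and Krt88) had no UMI, 35 had at least 1 UMI in the epithelium, and 22 reached 10 CPM there in the mean of either genotype. These 22 are named below. Over all kept cells Krt10 was the most counted, with 5838 UMIs, followed by Krt14 with 3896, Krt15 with 3230 and Krt5 with 2387. The share of a keratin's UMIs that lay in the epithelial cluster differed widely. It was 92.4% for Krt13, 90% for Krt7, 87.7% for Krt19, 81.2% for Krt15, 80.9% for Krt14 and 79.3% for Krt5, but 46.9% for Krt18, 10.7% for Krt10 and 6.10% for Krt8. Krt10 and Krt8 were thus counted mainly outside the epithelium, in mesenchyme.

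**Figure D1:**
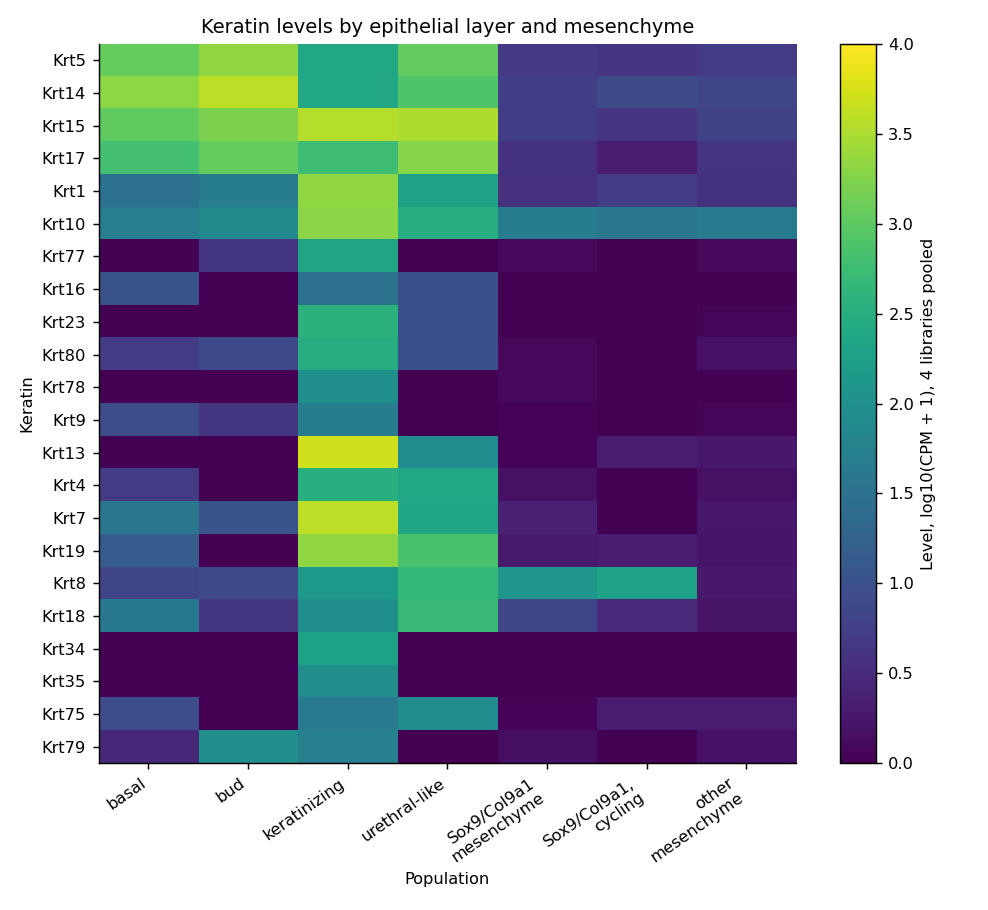
Levels of the 22 named keratins (rows) in the 4 epithelial layers, in the main and the cycling cluster of Sox9/Col9a1 mesenchyme and in the other mesenchyme (columns), as log10(CPM + 1) with the 4 libraries pooled. Krt14, Krt5 and Krt15 are bright in the basal-like and bud-like columns, and Krt13, Krt7, Krt19, Krt1 and Krt10 in the keratinizing-like column. In both Sox9/Col9a1 columns Krt8 is bright and Krt18 is faint.

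In the basal-like layer the leading keratins were Krt14 at 2062 CPM, Krt5 at 1117, Krt15 at 1052 and Krt17 at 633, with the 4 libraries pooled. Levels by layer are descriptions, since the cells were grouped on their own expression. Krt14 had a UMI in 98.3% of basal-like cells and Krt5 in 91.3%, and over the whole epithelium 298 of the 350 cells with Krt14 also held Krt5, its partner. Every other keratin was under 51 CPM in this layer, with Krt10 at 50.4, Krt18 at 40.7, Krt7 at 36.8, Krt1 at 31.0 and Krt8 at 5.81.

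The bud-like cells had the highest Krt14 and Krt5 levels of the 4 layers. Krt14 was 5484 and 4655 CPM in DTA- replicates 1 and 2 and 3373 and 2547 CPM in DTA+ replicates 1 and 2. Krt5 was 2458 and 2885 CPM in DTA- and 1951 and 1819 CPM in DTA+. Both were lower in the DTA+ libraries, but the libraries held 17, 8, 26 and 10 bud-like cells. No layer with fewer than 20 cells in a library was tested, and no share over all genes was taken here. Without the upper UMI limit the bud-like sub-cluster (51, 16, 57 and 4 cells) held Krt5 at 2808 and 2320 CPM in DTA- and 2320 and 3022 CPM in DTA+. Krt14 was 4885 and 3994 CPM there in DTA- and 3610 and 3465 CPM in DTA+. Krt15, a keratin of basal and stem-like keratinocytes, was at 1608 CPM and Krt17, which marks appendage buds and periderm, at 1129 CPM. The high pooled Krt79 of this layer, 97.8 CPM, came from 3 cells.

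The keratinizing-like layer held most of the variety, and its name may not cover all of its cells. Its leading gene was Psca, a marker on the urethral or non-keratinizing list. Krt13 (5206 CPM pooled), Krt7 (3969), Krt15 (3562), Krt19 (2200), Krt1 (2128) and Krt10 (2034) exceeded 2000 CPM, while the basal pair Krt14 and Krt5 stood at 246 and 242 CPM. Libraries differed in which of them they held. Krt13, the type I partner of Krt4, was 384 CPM in DTA- replicate 1 and 16270 CPM in DTA- replicate 2, and 565 CPM in DTA+ replicate 1 and 5711 CPM in DTA+ replicate 2. Krt1, the type II keratin of the epidermal spinous layer, was 5126 CPM in DTA- replicate 1 and at 0 in DTA- replicate 2, where 3 UMIs would be 68.8 CPM, and was 1421 and 1670 CPM in the DTA+ libraries. Krt10, its type I partner, was 2636 and 45.8 CPM in DTA- and 2313 and 2584 CPM in DTA+. The library highest in Krt13 was thus the lowest in Krt1 and Krt10, and it gave 9 keratinizing-like cells against 19, 19 and 21 in the other libraries.

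At a finer clustering (resolution 1.2) 2 sub-clusters met the keratinizing-like rule, with different keratins. In each library their cells and UMIs together equal those of the keratinizing-like and urethral-like layers together. They thus regroup the cells of both layers, and are not a split of the keratinizing-like layer alone. One, of 52 cells and led by genes of the granular layer such as Flg, held Krt1 at 3298 CPM, Krt10 at 3040 and Krt77, another type II keratin of the epidermis, at 344, and had no cell from DTA- replicate 2. The other, of 40 cells and led by Psca, held Krt13 at 5728 CPM, Krt15 at 5340, Krt7 at 4449, Krt19 at 2792 and Krt4 at 448, with Krt1 at 189 and Krt10 at 338. No sub-cluster took the urethral-like name at this resolution, nor at resolution 0.4, without the upper UMI limit or with the keratins kept in the clustering. The Psca-led group also held Krt8 at 383 CPM and Krt18 at 408. These were 143 and 98.6 CPM in the keratinizing-like layer and 461 and 520 CPM in the urethral-like layer. Levels of the Psca-led group are thus in part those of urethral-like cells, and how these cells divided between the 2 groups was not counted. Of the 94 epithelial cells with a Krt1 UMI, 61 also had Krt10 and 7 had Krt13. Of the 27 cells with Krt13, 23 also had Krt7. Few cells carried these levels: the 10 highest cells held 90% of all epithelial Krt13 UMIs, 80.2% of Krt7 and 73.2% of Krt19, against 13.4% of Krt14.

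The other named keratins were also highest in the keratinizing-like layer or rested on few cells. Pooled levels there were 372 CPM for Krt23, 323 for Krt4, 309 for Krt80, 215 for Krt77, 206 for Krt34, 98.6 for Krt78 and 94.1 for Krt35. Krt34 and Krt35 are hair keratins, and the Krt35 UMIs came from 3 cells. In the whole epithelium Krt75, a keratin of the hair follicle companion layer, was at 14.5 CPM, Krt9, known from palm and sole skin, at 13.3 CPM in 9 cells, and Krt16, known from stressed and palmoplantar skin, at 7.84 CPM in 6 cells. Krt75 was highest in the urethral-like layer, at 85.3 CPM in 7 of 24 cells, against 44.8 CPM in the keratinizing-like layer.

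The urethral-like layer, which only the main clustering separated, was the one in which Krt8 and Krt18 were paired. Krt8 was 622 and 990 CPM in DTA- replicates 1 and 2 and 414 and 176 CPM in DTA+ replicates 1 and 2, and Krt18 was 646 and 550 CPM in DTA- and 710 and 176 CPM in DTA+. Each had a UMI in 70.8% of the 24 cells, and of the 17 cells with Krt8 13 also held Krt18. The libraries gave 7, 2, 7 and 8 of these cells, too few to compare genotypes. The leading keratin of the layer was Krt15 at 3182 CPM, detected in every cell, and Krt19, a type I keratin of simple and transitional epithelium, was at 717 CPM. Krt17 was at 5179 CPM in DTA+ replicate 1 and at 110 to 622 CPM in the other libraries, and 1 epithelial cell of that library held 110 Krt17 UMIs.

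**Figure D2:**
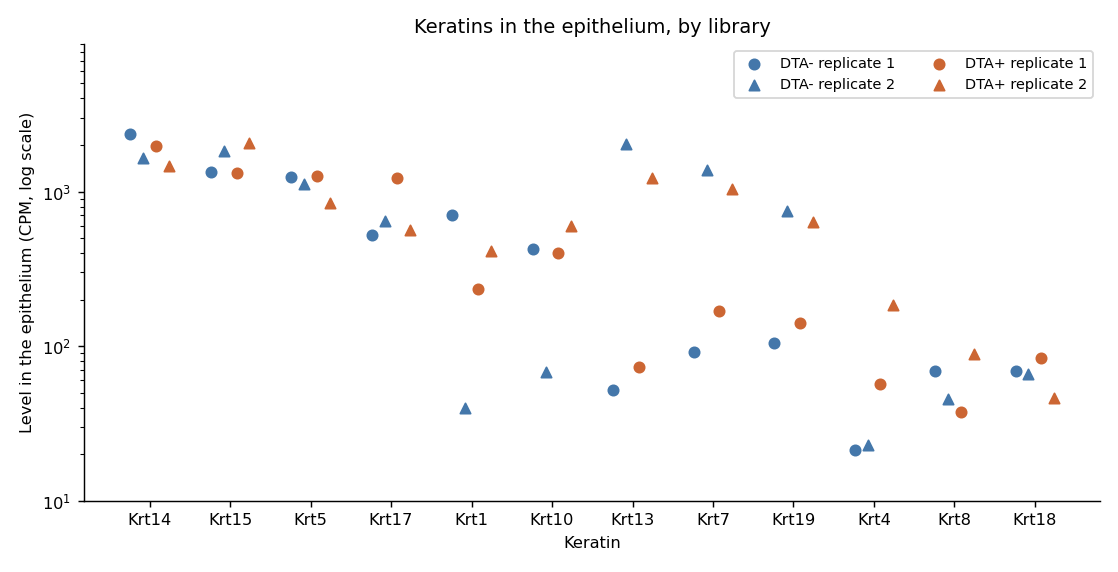
Level of 12 keratins (CPM, log axis) summed over all epithelial cells of each library, with circles for replicate 1, triangles for replicate 2, blue for DTA- and orange for DTA+. Krt14, Krt15 and Krt5 lie close together in the 4 libraries, whereas Krt13, Krt7 and Krt19 are higher in both replicates 2 and Krt1 and Krt10 are lowest in DTA- replicate 2.

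The first comparison of genotypes asked whether ablation changed keratin use in the epithelium as a whole. UMIs were summed over the epithelial cells of each library (325243 to 559864 UMIs) and tested with the edgeR quasi-likelihood test and Benjamini-Hochberg adjustment over all genes. None of the 16 keratins that passed the filter on low counts was called, beside 0% of all 4799 genes tested. The likelihood ratio test of edgeR and DESeq2 also called 0 keratins, and at an unadjusted p under 0.05 stood 1 keratin, Krt4, and 241 genes. Without the filter on low counts, Krt4 (adjusted p 2.27e-05, edgeR) and Krt77 were called, and the share of all genes called was not taken there. Krt77 was 11.8 and 5.71 CPM in DTA- and 3.57 and 135 CPM in DTA+, and 1 cell held 41 of its 53 epithelial UMIs. With the replicate number as a block, Krt10 and Krt4 were called, among 31 genes in all. The basal keratins differed little between libraries. Krt14 was 2371 and 1642 CPM in DTA- and 1961 and 1467 CPM in DTA+, a log2 change of -0.31 ± 0.28 (SE) with an adjusted p of 0.930. Krt5 was 1240 and 1111 CPM in DTA- and 1259 and 842 CPM in DTA+, with a log2 change of -0.24 ± 0.28. Krt15 was 1341 and 1842 CPM in DTA- and 1324 and 2060 CPM in DTA+, with the genotypes overlapping as for Krt14 and Krt5.

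Keratins of the upper layers varied more between replicates of 1 genotype than between genotypes. Krt13 was 52.1 and 2028 CPM in DTA- and 73.2 and 1230 CPM in DTA+, with a log2 change of -0.77 ± 1.39 (adjusted p 0.981, edgeR). Krt1 was 707 and 40.0 CPM in DTA- and 236 and 415 CPM in DTA+, with a log2 change of -0.33 ± 0.91. Krt10 was 426 and 68.6 CPM in DTA- and 402 and 597 CPM in DTA+, with a log2 change of 0.89 ± 0.65. In each case the genotypes overlapped. Krt7 (log2 change -0.37 ± 1.06) and Krt19 (-0.22 ± 0.85) were high in the same libraries as Krt13. Marker sums of layers and cell types also differed between libraries, in patterns that were not all those of the keratins. In DTA- 1, DTA- 2, DTA+ 1 and DTA+ 2, 11 urethral or non-keratinizing markers summed to 688, 5520, 547 and 1400 CPM. The 13 granular markers summed to 2420, 5250, 1120 and 7090 CPM, and 6 erythroid markers to 32800, 2640, 629 and 3300 CPM. The basal list stayed at 1090 to 1240 CPM. The part of layer make-up and of hemoglobin RNA in the keratin values was not tested, and fewer cells of a layer and less RNA per cell cannot be told apart in these sums.

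Krt4, the type II partner of Krt13, was the keratin with separate genotypes among the 16 tested in the epithelium. It was 21.3 and 22.9 CPM in DTA- and 57.2 and 184 CPM in DTA+, higher in both DTA+ libraries, with a log2 change of 2.28 ± 0.59 (unadjusted p 0.00461, adjusted p 0.900, edgeR). The genotypes did not overlap for this 1 of 16 keratins, beside 34.7% of all genes tested. The 4 libraries held 9, 8, 32 and 60 Krt4 UMIs in 24 cells, and 1 cell of DTA+ replicate 2 held 37 of them. Summed over all 31132 kept cells Krt4 was 0.716 and 0.396 CPM in DTA- and 2.56 and 2.36 CPM in DTA+, with a log2 change of 2.07 ± 0.35 and an adjusted p of 0.0751 by the edgeR quasi-likelihood test, while the edgeR likelihood ratio test (adjusted p 6.86e-05) and DESeq2 (0.00852) called it. Over all kept cells the quasi-likelihood test called 0 of 18 keratins, beside 0.488% of 15977 genes, with 2 keratins at an unadjusted p under 0.05. With 1 library left out the Krt4 log2 change ran from 1.69 to 2.55. It was 2.00 without DTA+ replicate 1 and 2.13 without DTA+ replicate 2. Calls of these fits are not given, since the share of all genes called was not taken.

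The epithelial result depended on single libraries. Without DTA- replicate 1, Krt4, Krt10, Krt1 and Krt77 were higher and Krt13, Krt7, Krt19, Krt23 and Krt34 lower in DTA+. Krt1 there went from -0.33 to 2.95 on the log2 scale. Without DTA+ replicate 2, Krt13, Krt7, Krt23 and Krt34 were lower in DTA+, and without DTA+ replicate 1 Krt4 and Krt77 were higher. Without DTA- replicate 2 Krt13 was at 3.45 on the log2 scale. The share of all genes called was not taken for these fits, so their calls are not given. In these fits the lone library of a genotype is assumed to vary like the others, and the libraries held 9 to 21 keratinizing-like cells. Krt77 rested mainly on 1 cell, which held 41 of its 53 epithelial UMIs.

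**Figure D3:**
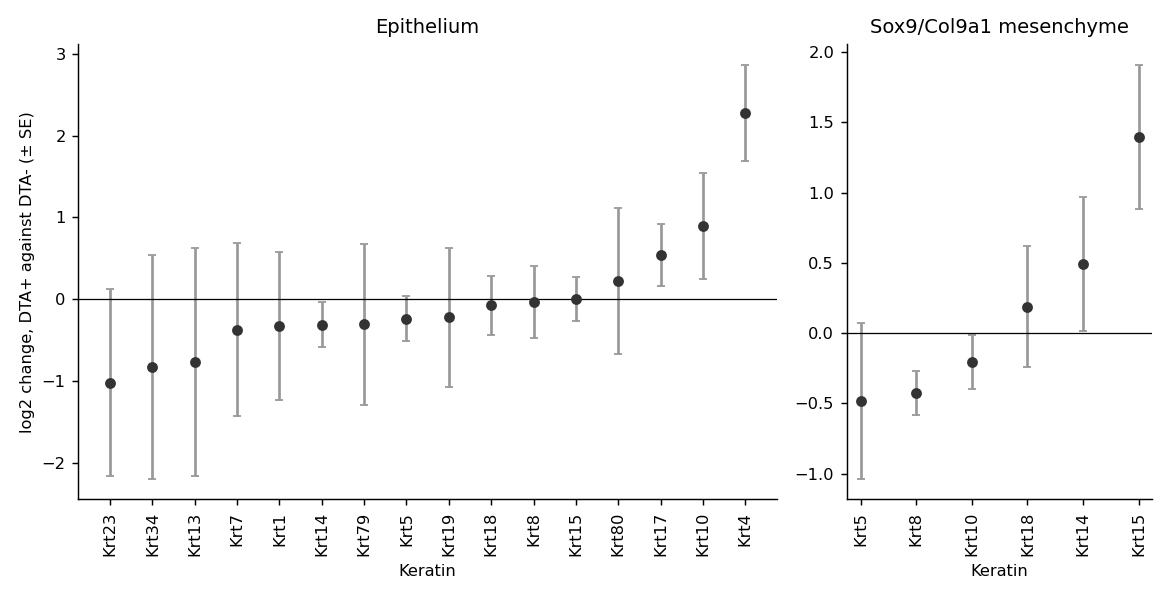
Log2 change in DTA+ against DTA- with its standard error (edgeR) for the 16 keratins tested in the epithelium and the 6 tested in Sox9/Col9a1 mesenchyme. Standard errors are near 0.3 for Krt14, Krt15 and Krt5 in the epithelium and above 0.8 for Krt13, Krt7, Krt19 and Krt1, and Krt8 in Sox9/Col9a1 mesenchyme has the smallest.

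Among the layers, only the basal-like had 20 cells or more in each library, with 20, 35, 34 and 26 cells. None of its 4 tested keratins was called by edgeR's quasi-likelihood test, beside 0% of 1789 genes, none by the likelihood ratio test or DESeq2, and none stood at an unadjusted p under 0.05, where 160 genes did. Krt14 was 2820 and 1913 CPM in DTA- and 1771 and 1951 CPM in DTA+, a log2 change of -0.30 ± 0.21 (adjusted p 0.695, edgeR). Krt5 was 1268 and 1134 CPM in DTA- and 1042 and 1056 CPM in DTA+, a log2 change of -0.14 ± 0.24. Its genotypes did not overlap, alone of the 4 keratins, beside 38.6% of the genes tested in this layer. Krt15 (0.01 ± 0.24) and Krt17 (-0.22 ± 0.26) overlapped. Erythroid markers summed to 6720 and 9740 CPM in DTA- replicate 1 and DTA+ replicate 2 and to 608 and 666 CPM in the other basal-like samples.

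Outside the epithelium Krt8 stood apart. In Sox9/Col9a1 mesenchyme Krt8 was at 128 CPM over 1347 UMIs, with at least 1 UMI in 786 of 2604 cells (30.2%) and up to 9 in a cell. Krt18, the partner with which Krt8 pairs in simple epithelium, was at 5.59 CPM over 59 UMIs. There were 40.6, 21.8, 17.4 and 20.4 Krt8 UMIs for each Krt18 UMI in the 4 libraries, against 0.885 in the urethral-like layer and 0.833 in the whole epithelium. Within cells, 24 of the 786 with Krt8 (3.05%) also had Krt18, against 13 of 17 (76.5%) in the urethral-like layer. Of the 1818 Sox9/Col9a1 cells without Krt8, 34 had Krt18. Krt8 was among the 10 leading genes of both Sox9/Col9a1 clusters, and its height there is given as a description, although the 29 keratins among the variable genes were left out of the clustering. The cells of the cycling cluster held more, 195 CPM against 121 in the main cluster, and Krt8 was detected in 46.5% of them against 29.0%.

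Depth was matched by thinning each cell to 1000 UMIs. Krt8 then had a UMI in 9.91% of Sox9/Col9a1 cells (95% exact binomial interval 8.79 to 11.1%, which covers counting error only), in 0.070% of the other mesenchyme (0.0415 to 0.111%), in 0.342% of macrophages (0.00867 to 1.89%) and in 0 of 498 endothelial cells (0 to 0.738%). Without thinning the share in endothelium was 0.803%, at a median of 3348 UMIs per cell against 3863 in Sox9/Col9a1 cells. The Krt8 share was thus above that of cell types that should lack the gene. Krt18 was at 0.768% of thinned Sox9/Col9a1 cells (0.470 to 1.18%), above the 0.070% of the other mesenchyme (0.0415 to 0.111%). That share lay within the wide intervals of endothelium (0.00508 to 1.11%), macrophages (0 to 1.26%) and glia (0 to 1.36%). These intervals rest on Krt18 in 1 of 498 endothelial cells, 0 of 292 macrophages and 0 of 269 glia. The part of background in the Krt18 of Sox9/Col9a1 cells was not tested. In urethral-like cells Krt18 was at 50% (29.1 to 70.9%). Cells with a Col9a1 UMI after thinning held Krt8 in 19.6% (68 of 347) against 8.42% (190 of 2257) without one, while the share was 9.33%, 10.8% and 10.3% for 0, 1 and 2 or more Sox9 UMIs. In each library the share was higher with Col9a1, at 27.0%, 15.4%, 15.3% and 24.4% against 8.96%, 9.37%, 9.20% and 6.54%. Epithelium markers were measured beside it: 15 of them, of which 2 were at 0, summed to 16.9, 17.7, 20.9 and 25 CPM, against 12.1 to 16 CPM in the other mesenchyme. The 13 suprabasal markers summed to 247, 168, 210 and 192 CPM, above the 89.7 to 144 CPM of the other mesenchyme, and their part in the Krt8 values was not tested. Periderm markers summed to under 1 CPM. The 6 Merkel cell markers summed to 383, 299, 446 and 413 CPM, against 354 to 497 CPM in the other mesenchyme, with the factor genes Atoh1 and Pou4f3 at 0.

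**Figure D4:**
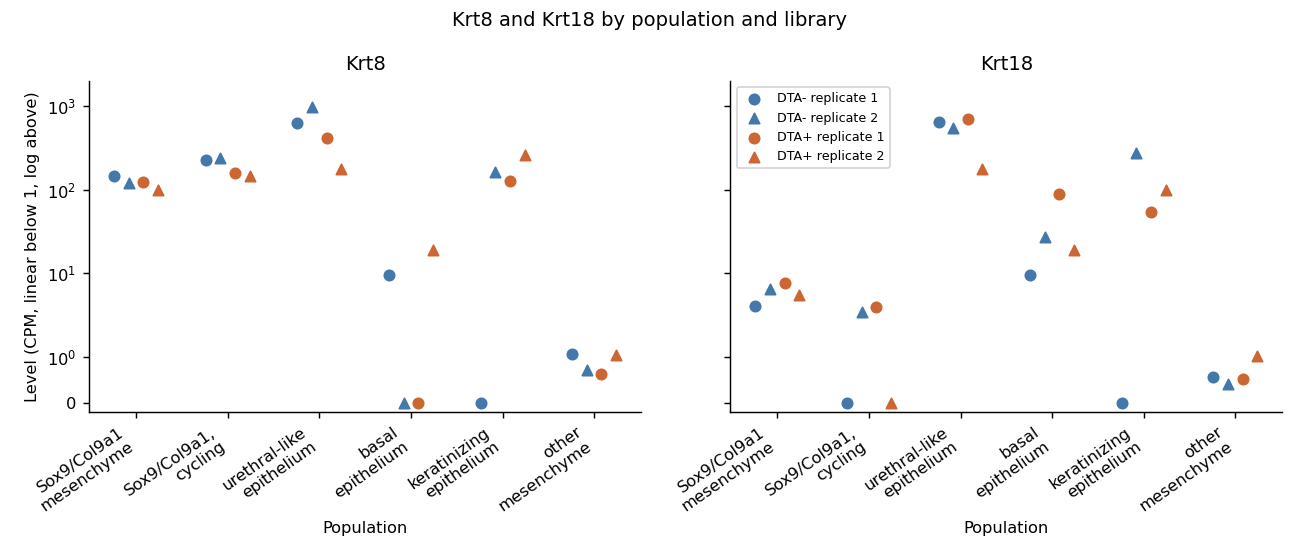
Krt8 (left) and Krt18 (right) in 6 populations by library, in CPM on an axis that is linear near 0 and logarithmic above, with circles for replicate 1, triangles for replicate 2, blue for DTA- and orange for DTA+. Both keratins are high in urethral-like cells, while in Sox9/Col9a1 mesenchyme Krt8 is above 100 CPM and Krt18 under 10.

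Krt8 and Krt18 are neighbours in the genome, and their start regions are shown because their levels were close in one population and far apart in the other. Krt18 is the only type I keratin on chromosome 15, where it lies among the 23 type II genes (chr15:101347444-102032027, mm10, GENCODE vM21) and 23697 bases from Krt8, whereas the other type I genes lie on chromosome 11. Krt8 is on the minus strand and Krt18 on the plus strand. The sequences are those RefSeq gives for GRCm38.p6, from 250 bases before the RefSeq start of the gene, which lies downstream of the GENCODE start, 5' to 3', Krt8 at chr15:102004323-102004592 on the minus strand and Krt18 at chr15:102027966-102028235 on the plus strand.
Krt8: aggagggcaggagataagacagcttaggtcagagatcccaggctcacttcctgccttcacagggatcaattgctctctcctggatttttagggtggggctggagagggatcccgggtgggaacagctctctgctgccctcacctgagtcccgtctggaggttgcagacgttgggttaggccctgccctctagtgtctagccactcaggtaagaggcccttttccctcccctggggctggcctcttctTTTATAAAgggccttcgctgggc
Krt18: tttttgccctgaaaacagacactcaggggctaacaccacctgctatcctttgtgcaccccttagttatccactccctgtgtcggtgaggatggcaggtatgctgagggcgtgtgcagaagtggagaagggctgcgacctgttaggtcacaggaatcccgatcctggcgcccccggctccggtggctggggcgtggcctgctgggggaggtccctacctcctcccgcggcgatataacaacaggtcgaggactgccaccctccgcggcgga
Capitals mark TATAAA, the core of the TATA box, found on both strands in overlapping matches in Krt8 and in neither strand in Krt18. The Krt8 match lies across the RefSeq start and downstream of the GENCODE start, not before them. Whether it acts as a TATA box was not tested. It occurs in 12.9% of 32851 promoter windows of this length and in 17 of the 36 keratin windows in the reference. GGGCGG, an Sp1 box, ACAAT, a core of SOX binding sites, and TGANTCA, an AP-1 site, were in neither window, and are in 34.1%, 29.1% and 7.23% of all windows.

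The second comparison asked whether the Krt8 of Sox9/Col9a1 mesenchyme differed between genotypes. Krt8 was 151 and 134 CPM in DTA- replicates 1 and 2 and 126 and 103 CPM in DTA+ replicates 1 and 2. It was lower in both DTA+ libraries, with a log2 change of -0.42 ± 0.16 (unadjusted p 0.0129, adjusted p 0.0912, edgeR quasi-likelihood test), which did not pass. Krt18 was 3.72 and 6.16 CPM in DTA- and 7.21 and 5.07 CPM in DTA+, with a log2 change of 0.19 ± 0.43 and overlapping genotypes, and its sign turned without DTA- replicate 1 (-0.13), without DTA+ replicate 1 (-0.06) and without the upper limit on UMIs per cell (-0.21). None of the 6 keratins tested was called, beside 9.83% of all 11026 genes tested, and the likelihood ratio test and DESeq2 called 0 keratins too. Krt8 and Krt15 were the 2 keratins at an unadjusted p under 0.05, among 2658 such genes, and the 2 whose genotypes did not overlap, beside 54.1% of all genes. Without DTA- replicate 2 the Krt8 log2 change was -0.48. Krt8 passed without the upper limit on UMIs per cell (-0.57, adjusted p 0.0336, edgeR). The share of all genes called was not taken for that fit. Sox9/Col9a1 cells in DTA- 1, DTA- 2, DTA+ 1 and DTA+ 2 numbered 476, 582, 807 and 739 with that limit. They numbered 901, 725, 854 and 869 without it, and the part of this uneven loss in the Krt8 change was not tested. Over all alternatives the Krt8 log2 change ran from -0.57 to -0.27. DTA- cells were deeper. After thinning to 1000 UMIs a cell, which left 294 of the 1347 Krt8 UMIs, the log2 change was -0.27 (adjusted p 0.506, edgeR). The part of depth in the Krt8 change was not tested.

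The other mesenchyme, 25713 cells, held almost no Krt8 or Krt18. Krt8 was 1.07 and 0.714 CPM in DTA- and 0.633 and 1.04 CPM in DTA+, and its 17 clusters ranged from 0 to 5.43 CPM. The difference in the Krt8 response between Sox9/Col9a1 and other mesenchyme was -0.31 ± 0.33 on the log2 scale (adjusted p 0.769), and 0 of the keratins passed this interaction test of edgeR, beside 3.73% of 14597 genes. The genotype test in the other mesenchyme called 0 of 16 keratins, beside 1.22% of 15007 genes, with 0 keratins under the likelihood ratio test and DESeq2 and 3 at an unadjusted p under 0.05 (Krt13, Krt15 and Krt77).

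Krt10 was the keratin of broadest reach. It was 51.9 and 38.7 CPM in DTA- and 37.7 and 43.8 CPM in DTA+ in the other mesenchyme, and 53.7 and 42 CPM in DTA- and 44.7 and 44.5 CPM in DTA+ in Sox9/Col9a1 mesenchyme (log2 change -0.21 ± 0.19, adjusted p 0.549, edgeR). The genotypes overlapped in both. At 1000 UMIs a cell it was detected in 4.17% of other mesenchymal cells (3.93 to 4.42%), 3.73% of Sox9/Col9a1 cells (3.03 to 4.53%) and 3.35% of glia (1.54 to 6.26%), against 1.00% of endothelial cells (0.327 to 2.33%) and 0.342% of macrophages (0.00867 to 1.89%). Its partner Krt1 did not accompany it. There were 14.9 Krt10 UMIs for each Krt1 UMI in the other mesenchyme and 16.2 in Sox9/Col9a1 mesenchyme, against 1.07 in the epithelium. Krt10 overlaps an annotated gene on the opposite strand, as do 9 other keratins, Krt5, Krt7 and Krt8 among them. The kit marks strand, but the strand setting of the count is not given in the sources used here.

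Basal keratins were detected in few mesenchymal cells, at shares within the wide intervals of endothelium. At 1000 UMIs a cell Krt14 had a UMI in 0.422% of Sox9/Col9a1 cells (0.211 to 0.755%) against 0.602% of endothelial cells (0.124 to 1.75%), and Krt15 in 0.384% (0.184 to 0.705%) against 0.201% (0.00508 to 1.11%). Krt5 and Krt1 were likewise within the intervals of endothelium. In Sox9/Col9a1 mesenchyme Krt15 was 2.89 and 1.54 CPM in DTA- and 5.05 and 7.6 CPM in DTA+ (log2 change 1.40 ± 0.51, adjusted p 0.0879, edgeR). The endothelial share of Krt15 rests on 1 of 498 cells, so expression in Sox9/Col9a1 cells and background cannot be told apart here. The summed epithelium markers were likewise higher in both DTA+ libraries, and their part in the Krt15 values was not tested.

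The genes that work with keratins were read from lists fixed for desmosomes, hemidesmosomes, cornified envelope, keratinocyte transcription factors, other intermediate filaments and filament chaperones. In the epithelium no gene of the 6 lists was called by edgeR's quasi-likelihood test, as none of all genes was, and the list medians lay between -0.20 (other intermediate filaments, 3 of 16 tested) and 0.33 (desmosome, 10 of 15), beside -0.01 over all genes. The 16 keratins had a median of -0.23, with 4 above 0 and 12 below.

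In Sox9/Col9a1 mesenchyme the intermediate filament genes other than keratins had a median log2 change of -0.52 over 7 tested, and 3 were lower in DTA+, beside a median of -0.01 over all genes and the 9.83% of genes called. DESeq2 called 380 genes in this population in place of 1084. Vim, the vimentin gene of mesenchymal cells, was 1858 and 1736 CPM in DTA- and 1441 and 1386 CPM in DTA+ (log2 change -0.46 ± 0.12, adjusted p 0.0182, edgeR). Lmna, which encodes the nuclear lamins A and C, was lower by a similar measure (-0.52 ± 0.13, adjusted p 0.0165, edgeR), and Des, the muscle filament desmin, fell from 67.7 and 58.6 CPM to 39.0 and 29.7 CPM (-0.99 ± 0.19, adjusted p 0.00223, edgeR). The Krt8 change of -0.42 was of the size of that of Vim, but did not pass. Of the keratinocyte transcription factor genes, Maf was lower (-0.88 ± 0.19, adjusted p 0.00415, edgeR). Calls in the other lists in Sox9/Col9a1 mesenchyme were the tetraspanin gene Cd151 and Krtcap2, lower, and the cornified envelope gene Cnfn, higher. Cnfn was 6.13 and 5.07 CPM in DTA+ and 1.24 and 0.385 CPM in DTA-, where 3 UMIs would be 1.24 and 1.16 CPM. The granular markers, Cnfn among them, summed in this population to 7.02 and 7.32 CPM in DTA- and 15.1 and 14.8 CPM in DTA+. The part of background in the Cnfn values was not tested. None of the 4 desmosome genes tested was called there.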

How the data were processed

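Single-cell RNA of embryonic day 16.5 penises was measured in 4 libraries, 2 per genotype, which were pooled for sequencing. The deposited values are raw UMI counts per gene and barcode. The authors made them with Cell Ranger 4.0.0 against mm10 according to the submitters' processing notes, whereas the study's methods name an earlier version. No reads were realigned.

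Kept cells lay between the study's UMI limits of 1000 and 7500, with mitochondrial and Hba genes each giving no more than 25% and Hbb genes no more than 50% of counts. The upper limit leaves out large cells (305 of 751 epithelial cells found without the upper limit). The loss differed between libraries. Cells kept numbered 6573 of 9086 in DTA- 1, 7874 of 9160 in DTA- 2, 7875 of 9005 in DTA+ 1 and 8810 of 9927 in DTA+ 2. The part of this in the genotype comparisons was not tested. Seurat 5.3.0 clustered the kept cells on 2000 variable genes without their 29 keratins, with 30 principal components (15 for the epithelium) at resolution 0.8. Naming took 3 or more markers, each detected in 5% of the cells and higher there than in the other cells by a log2 fold of 0.8 after adding 10 CPM. The basal-like name went only to sub-clusters left without another name. It took 6 basal markers higher by that fold than in the keratinizing-like cells alone. These limits were set after the data had been seen. Scrublet called 0 to 1 cells per library and so did not work, and no doublets were removed, but the highest-scoring cells (0.8% per 1000 cells) were left out in an alternative.

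Counts were summed per library and population, where each library held at least 20 cells, and tested with the edgeR 4.0.16 quasi-likelihood test with TMM normalization, filterByExpr and Benjamini-Hochberg adjustment at 0.05 over all genes of the fit. DESeq2 1.42.0, the edgeR likelihood ratio test, other filters, other clusterings, thinning and leaving out each library were alternatives. The procedure was tested on simulated data. Named keratins are those with at least 10 CPM in the epithelium in either genotype. Krt6a, Krt6b, Krt33a and Krt33b fall outside the rule on symbols, and the near-identical hair keratins Krt81, Krt83 and Krt86 are uncertain where reads are shared. The members and lists were chosen with earlier results of these data known. Results for part of the transcription factor list are not reported here.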

Additional observations from a re-analysis of the deposited data

Results flagged for a closer look

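The following keratin signals were seen in cells outside the comparisons, at 5 times or more the level in the other mesenchyme, and are given as values. In mast cells Krt83 was at 29.48 CPM (25 UMIs in 11 of 197 cells) with none in the other mesenchyme, and it was 36.0, 5.37, 36.6 and 36.0 CPM in DTA- 1, DTA- 2, DTA+ 1 and DTA+ 2. Mast cells also held Krt4 at 20.05 CPM (17 UMIs in 14 cells) against 0.517 CPM in the other mesenchyme, and Krt79 at 8.254 CPM (7 UMIs in 6 cells) against 0.555 CPM. Macrophages held Krt80, a type II keratin of many epithelia, at 21.63 CPM (28 UMIs in 26 of 292 cells) against 0.574 CPM. Glia held Krt80 at 6.459 CPM (8 UMIs in 8 of 269 cells), and pericytes held Krt79 at 10.05 CPM (11 UMIs in 10 of 209 cells).

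In the epithelial cells above the upper limit of UMIs, which the comparisons leave out, Krt4 was at 24.93 CPM in DTA+ replicate 1 and 467.4 CPM in DTA+ replicate 2, against 1.596 and 4.549 CPM in the DTA- libraries. These levels rest on 513 UMIs in 12 cells. Krt4 was chosen here by name, not by the rule of 5 times the other mesenchyme. Krt8, Krt9, Krt15 and Krt17 were also higher in both DTA+ libraries in these cells without overlap, while Krt14, Krt5, Krt1 and Krt10 overlapped. No share over all genes was taken.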

How the results depend on the processing

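The comparisons rest on 2 libraries per genotype and on 89 to 149 epithelial cells in each, and keratins counted in few cells had the widest errors. Most values kept their side of the threshold: of 70 comparison values outside the replicates left out, 60 were in the same range or direction.

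The count of keratins called in the epithelium was 0, and 2 without a filter on low counts (Krt77 and Krt4). With 1 library left out it ran from 0 to 9. In the basal-like layer it ran from 0 to 0. In Sox9/Col9a1 mesenchyme the count was 2 without the upper UMI limit (Krt15 and Krt8) and 0 to 1 with 1 library left out. In the other mesenchyme it was 1 without a filter (Krt4), and 0 to 0 with 1 library left out. Over all kept cells it was 1 (Krt4) under the edgeR likelihood ratio test, DESeq2 and no filter, and 0 to 2 with 1 library left out. Krt8 in Sox9/Col9a1 mesenchyme was -0.57 on the log2 scale without the upper limit and -0.55 to -0.31 with 1 library left out, and Krt18 was -0.21 and -0.13 to 0.64.

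Over all genes tested, same-numbered libraries did not clearly vary together. Epithelial Krt13, Krt7 and Krt19 were nevertheless higher in both replicates 2, and a factor shared by same-numbered libraries was not tested for them. Deviations of same-numbered libraries correlated at 0.0909 in the epithelium, -0.0839 in the basal-like layer, -0.155 in Sox9/Col9a1 mesenchyme, -0.347 in the other mesenchyme and -0.325 over all cells. Values below 0 mean that same-numbered libraries tended to deviate in opposite directions. A factor shared by differently numbered libraries was not tested. With the number as a block 2 keratins (Krt10 and Krt4) were called in the epithelium and 1 (Krt4) over all kept cells, Krt8 in Sox9/Col9a1 mesenchyme was -0.43 (adjusted p 0.188, edgeR), and Krt7 (0.10), Krt1 (0.44) and Krt79 (0.0074) turned in the epithelium. Genes called went from 0 to 31 in the epithelium and from 0 to 7 in the basal-like layer, from 1084 to 890 in Sox9/Col9a1 mesenchyme, from 183 to 347 in the other mesenchyme and from 78 to 335 over all cells. DESeq2 called 380 in place of 1084 genes in Sox9/Col9a1 mesenchyme, 562 in the other mesenchyme and 552 over all cells, and the likelihood ratio test 5, 833 and 658 in the epithelium, the other mesenchyme and over all cells.

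Other keratin values also changed sign, and none of those outside the fits with 1 library left out was called. Without the upper limit, in the epithelium, Krt23 was 0.076, Krt15 0.36, Krt19 0.23, Krt1 0.32, Krt79 1.32, Krt8 1.98 and Krt18 0.84. Krt15 was also 0.0022 with DESeq2, 0.0033 with RLE normalization and 8e-04 without a filter, and Krt8 0.017 with DESeq2. In cells with at least 4 epithelium markers Krt80 was -0.71 and Krt1 1.57. In the basal-like layer Krt15 was -0.0895 without the highest doublet scores and -0.017 after thinning. With 1 library left out, epithelial log2 changes ran from -1.27 to 2.95 for Krt1, -3.85 to 3.45 for Krt13, -0.59 to 0.0271 for Krt14, -0.32 to 0.26 for Krt15, -0.16 to 1.01 for Krt17, -0.66 to 0.26 for Krt18, -1.62 to 1.72 for Krt19, -3.76 to 1.82 for Krt23, -4.26 to 6.36 for Krt34, -0.60 to 0.0408 for Krt5, -2.13 to 2.52 for Krt7, -1.51 to 2.78 for Krt79, -0.68 to 0.51 for Krt8 and -0.94 to 2.70 for Krt80. In the basal-like layer they ran from -0.55 to 0.0544 for Krt14, -0.26 to 0.37 for Krt15 and -0.44 to 0.14 for Krt17, in Sox9/Col9a1 mesenchyme from -0.15 to 0.93 for Krt14 and -1.52 to 0.10 for Krt5, and in the other mesenchyme from -0.42 to 0.0196 for Krt10 and -0.54 to 0.18 for Krt8. The cause of these changes was not tested.

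The basal-like layer gave no value without the upper limit, with keratins kept in the clustering or at resolution 1.2, where a library fell under 20 cells or the layer changed, and Krt18 none after thinning or in cells with Sox9 and Col9a1 UMIs. Leaving out the hemoglobin-led and mesenchyme-led sub-clusters of the epithelium and leaving out the cycling Sox9/Col9a1 cluster were chosen after seeing the data, and changed no count of called keratins.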

Other observations

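Without the upper limit on UMIs per cell the epithelium was 751 cells, and keratins that were rare below the limit appeared in further sub-clusters. Krt79, a keratin of sebaceous and hair follicle ducts, was at 362 CPM in a sub-cluster of 46 cells led by the lipid genes Scd1 and Soat1, with a UMI in 67.4% of its cells. That sub-cluster held 6 and 1 cells from the DTA- libraries and 14 and 25 from the DTA+ libraries, and its share was not tested between genotypes. Krt9 led another sub-cluster at 86.8 CPM, at 64.6 and 2.93 CPM in DTA- and 40.7 and 315 CPM in DTA+, with its UMIs in 8 cells. Median depth was 13158.5 UMIs in the Krt79 sub-cluster, above the upper limit, and 5127 UMIs in the Krt9 sub-cluster, below it.

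Within the other mesenchyme the highest Krt18 level, 5.28 CPM (1.96% of cells), was in a cluster led by Kera and Nefl. Sox9/Col9a1 mesenchyme was near it, at 5.59 CPM (2.23% of cells). The other mesenchyme as a whole held 1.38 Krt8 UMIs for each Krt18 UMI.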
